A study of Homo sapiens with 40 samples.

Results

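The cytochrome P450 3A enzymes, the 2 nuclear receptors that regulate them and the reductase that supplies them with electrons were followed in HepaRG cells, a human hepatic line. The 7 genes CYP3A4, CYP3A5, CYP3A7, CYP3A43, NR1I2 (PXR), NR1I3 (CAR) and POR were taken by gene name, out of 56568 gene names, from the FPKM tables of the PCB 126 and the herbicide experiments. FPKM, read pairs scaled to transcript length and to the size of the library, were summed over the transcripts of a gene name. All 7 names were present. The cells (HPR 116) had been thawed, plated and kept in general purpose medium until day 8, and from day 8 to day 14 all groups received the same low-serum test medium with DMSO. The control group received the solvent alone. The exposed groups received PCB 126 at 100 pM, 10 nM or 1 µM, glyphosate at 10 µg/L, 1 mg/L or 0.1 g/L, or the herbicide Roundup (Grand Travaux +) at 10 µg/L. There were 5 libraries in each of the 8 groups, 40 in all, and the same 5 control libraries served both experiments, so that the comparisons with control share them. The cells are a single line in which hepatocyte-like and biliary-like cells grow together, so fewer cells of a type and less RNA per cell cannot be told apart in these bulk libraries. The sources used here do not say whether the libraries of a group came from separate cultures, so the p-values measure only the spread between these libraries.

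CYP3A enzymes are monooxygenases of the endoplasmic reticulum. CYP3A4 oxidises a large share of drugs in the adult human liver, CYP3A5 has an overlapping substrate range, CYP3A7 is the main form of the fetal liver, and CYP3A43 is a minor form. All of them receive electrons from NADPH through the cytochrome P450 oxidoreductase POR. PXR and CAR are ligand-responsive nuclear receptors that pair with the retinoid X receptor and bind paired half-sites in the regulatory DNA of CYP3A, CYP2B and CYP2C genes. PCB 126 is a dioxin-like biphenyl and a ligand of the aryl hydrocarbon receptor (AhR), a different transcription factor whose best known targets are the CYP1 enzymes.

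The proximal promoters are shown for an everted repeat of half-sites in CYP3A4, of a kind that PXR and CAR bind. The other CYP3A genes hold stretches that resemble it to differing degrees. RefSeq promoters on GRCh38.p14, from 250 bases before to 50 bases after the gene start, were found for 6 of the 7 members. The letters TGAACT followed after 6 bases by AGGTCA occurred, on either strand, in 3 of 35116 promoters (0.00854%), those of CYP3A4, CYP3A5 and ITGB1BP2. The half-site AGGTCA alone was present in 13.8% of the promoters and TGAACT alone in 10.4%. The stretches of 60 bases below were read on the strand of each gene, at chr7:99784315-99784374 (minus) for CYP3A4, chr7:99680071-99680130 (minus) for CYP3A5, chr7:99735326-99735385 (minus) for CYP3A7 and chr7:99827815-99827874 (plus) for CYP3A43. The capitals mark the 18 letters of the CYP3A4 repeat and the 18 letters of the other promoters with the fewest differences from it.
CYP3A4: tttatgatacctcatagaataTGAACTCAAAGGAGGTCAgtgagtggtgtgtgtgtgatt
CYP3A5: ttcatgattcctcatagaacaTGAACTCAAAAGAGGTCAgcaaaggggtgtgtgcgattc
CYP3A7: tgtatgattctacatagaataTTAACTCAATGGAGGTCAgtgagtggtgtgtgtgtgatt
CYP3A43: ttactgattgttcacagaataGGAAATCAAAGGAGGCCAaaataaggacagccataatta

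Counted from 1 at the 5′ end of the capitals, with the CYP3A4 base first, CYP3A5 carried G11A, in the spacer. CYP3A7 carried G2T, in the first half-site, and A10T, in the spacer. CYP3A43 carried T1G, C5A and T16C, which left neither half-site in the form searched. The capitals began at position -169 from the gene start in CYP3A4, at -113 in CYP3A5, at -168 in CYP3A7 and at -177 in CYP3A43. The core of the AhR element, GCGTG, was searched on both strands, was present in 36.5% of all promoters, and was not found in the window of any of these 6 genes. A match describes letters in this window only.

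The 4 CYP3A genes lie side by side on chromosome 7, at 99648194-99679998 (CYP3A5, minus strand), 99705037-99735196 (CYP3A7, minus), 99756960-99784265 (CYP3A4, minus) and 99828013-99866102 (CYP3A43, plus), in GRCh38 as the files give it. POR lies apart on chromosome 7, at 75899200-75986855 (plus). NR1I2 lies on chromosome 3, at 119780484-119818485 (plus), and NR1I3 on chromosome 1, at 161229666-161238302 (minus). The CYP3A genes are close in sequence, so their reads may be split among them, and a readthrough gene name, CYP3A7-CYP3A51P, held 0.0 to 1.06 FPKM beside CYP3A7.

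The libraries differed among themselves in ways that the groups did not explain. The sum of FPKM was 255292 in the smallest library and 513059 in the largest, and 9 of the 40 libraries had over 30% multiply aligned read pairs in the alignment summary of the study. These 9 were control library 5, PCB 126 10 nM libraries 3 and 5, PCB 126 1 µM libraries 1 and 5, glyphosate 10 µg/L library 5, glyphosate 0.1 g/L library 2 and Roundup libraries 4 and 5. Most of the libraries numbered 5 are thus among them, and these form a single run of library numbers, 73 to 80. Fits without the 9 therefore also leave out most of that run, and the 2 cannot be told apart there. The median of NR1I2 was 0.674 FPKM in the 9 libraries and 1.77 FPKM in the other 31, that of CYP3A4 1.69 and 3.06 FPKM, and that of CYP3A7 0.720 and 1.05 FPKM. Hepatocyte markers were present in every library. The 12 of them summed to 6812 to 30510 FPKM, ALB, the serum albumin gene, had a mean of 10530 FPKM, and none of the 12 had a mean under 1 FPKM. Of 9 biliary and progenitor markers, KRT19, SOX9, SPP1 and CD24 were expressed and 5 had a mean under 1 FPKM. The 8 stromal, endothelial and leucocyte markers summed to 4.33 to 31.4 FPKM, and COL1A2 and PTPRC were at or near 0.

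In the control libraries the reductase was the most abundant member, followed by CYP3A5 and CYP3A4. POR was at 27.0 ± 5.80 FPKM (SD, n = 5), CYP3A5 at 5.94 ± 2.37, CYP3A4 at 3.08 ± 2.27, NR1I2 at 1.39 ± 0.912, CYP3A7 at 1.31 ± 0.411, NR1I3 at 0.400 ± 0.116 and CYP3A43 at 0.0684 ± 0.0273 FPKM. NR1I2 exceeded CYP3A7 in only 1 of 5 control libraries, although its control mean was the higher, and in 32 of all 40. Whether the 2 differ was not tested. CYP3A5 exceeded CYP3A4 in 4 of 5 control libraries and in 38 of 40, and CYP3A4 exceeded NR1I2 in 5 of 5 and in 33 of 40. NR1I3 exceeded CYP3A43 in 40 of 40 libraries.

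**Figure D1:**
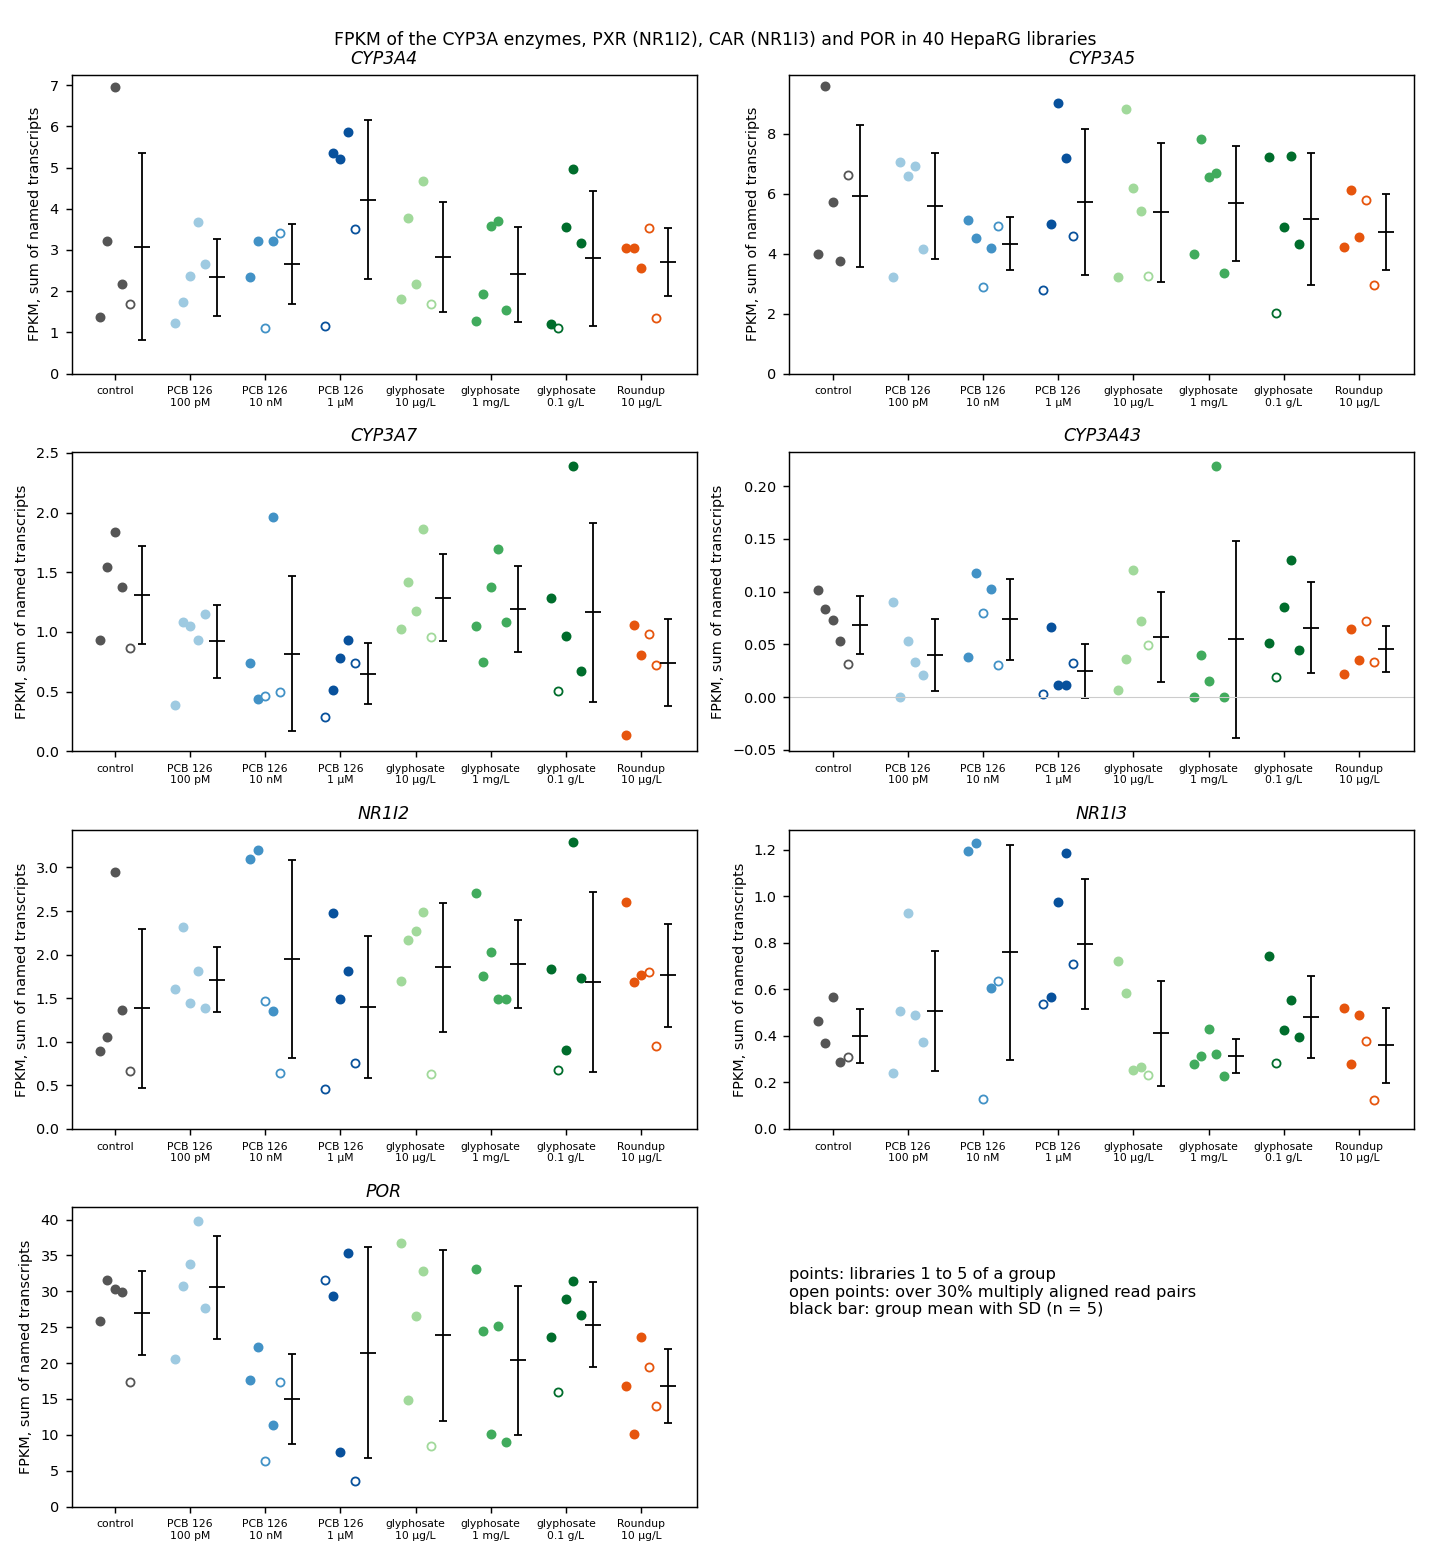
FPKM of each of the 7 members (y axis, linear) in the 5 libraries of each of the 8 groups (x axis), with the group mean and SD as a black bar and open points for the 9 libraries with over 30% multiply aligned read pairs. Each exposed group overlaps the control group for every member, and the widest range in FPKM is that of POR, from 3.53 to 39.9 over the 40 libraries.

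Few of the annotated transcripts carried most of each sum. CYP3A4 was led by ENST00000336411, with 13 exons, at a mean of 2.31 FPKM over the 40 libraries or 80.2% of the gene. It was followed by ENST00000354593 (0.446 FPKM) and ENST00000480043 (0.121 FPKM). CYP3A5 was led by short forms, ENST00000473347 with 2 exons (1.65 FPKM) and ENST00000439761 with 5 exons (1.29 FPKM), before the 13-exon ENST00000222982 (0.790 FPKM). CYP3A7 was led by ENST00000477357 with 10 exons (0.749 FPKM, 74.1% of the gene). ENST00000498080 (0.111 FPKM) and ENST00000467776 (0.0772 FPKM), each with 2 exons, came next. Its 13-exon ENST00000336374 ranked 4 (0.0734 FPKM) and was above 0 in 17 of the 40 libraries. CYP3A43 was led by ENST00000481362 (0.0253 FPKM), ENST00000354829 (0.0184 FPKM) and ENST00000434806 (0.00321 FPKM). NR1I2 was divided over ENST00000474090 (0.616 FPKM), ENST00000493757 (0.476 FPKM) and ENST00000393716 (0.400 FPKM). NR1I3 was divided over ENST00000506209 (0.171 FPKM), ENST00000479324 (0.0999 FPKM) and ENST00000505944 (0.0748 FPKM), and only 13 of its 35 annotated transcripts were above 0 in any library. POR was led by the 16-exon ENST00000461988 (11.1 FPKM, 49.2% of the gene), ENST00000493973 (3.40 FPKM) and ENST00000394893 (2.92 FPKM).

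At POR and CYP3A5 much of the signal lay outside the gene name. The files hold transcript models that StringTie assembled and that carry no gene name, and these are not part of a sum per gene name. Inside the POR locus there were 6 such models, all with 16 exons and 2474 to 3297 bases long, with 24.1% of the FPKM of the locus. Inside the CYP3A5 locus there were 20, with 5 to 14 exons and up to 16009 bases, and they held 66.1% of the FPKM of the locus. No such model lay inside NR1I2, NR1I3, CYP3A7 or CYP3A43. One with 2 exons ran from CYP3A5 into CYP3A4, with a mean of 0.0538 FPKM, and was counted to neither.

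In POR the assembled models were high in the libraries where the leading annotated transcript was at 0. ENST00000461988 was listed at 0 in 12 of the 40 libraries, and in those 12 the assembled models held 7.29 to 22.6 FPKM (median 15.4). In the other 28 libraries the assembled models held 0.0190 to 22.6 FPKM, with a median of 0.208. The sum of named and assembled transcripts had a median of 30.6 FPKM in the 12 and 29.8 FPKM in the 28. PCB 126 1 µM library 3, for example, had 7.54 FPKM on named POR transcripts and 22.6 FPKM on assembled ones, where library 4 of the same group had 35.3 and 0.158 FPKM. Within groups, the SD of POR on the log2(FPKM + 1) scale was 0.722 for the named sum and 0.439 with the assembled models added (32 residual degrees of freedom). For CYP3A5 it was 0.461 and 0.535. The alternative with assembled models was chosen after the data were seen.

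**Figure D2:**
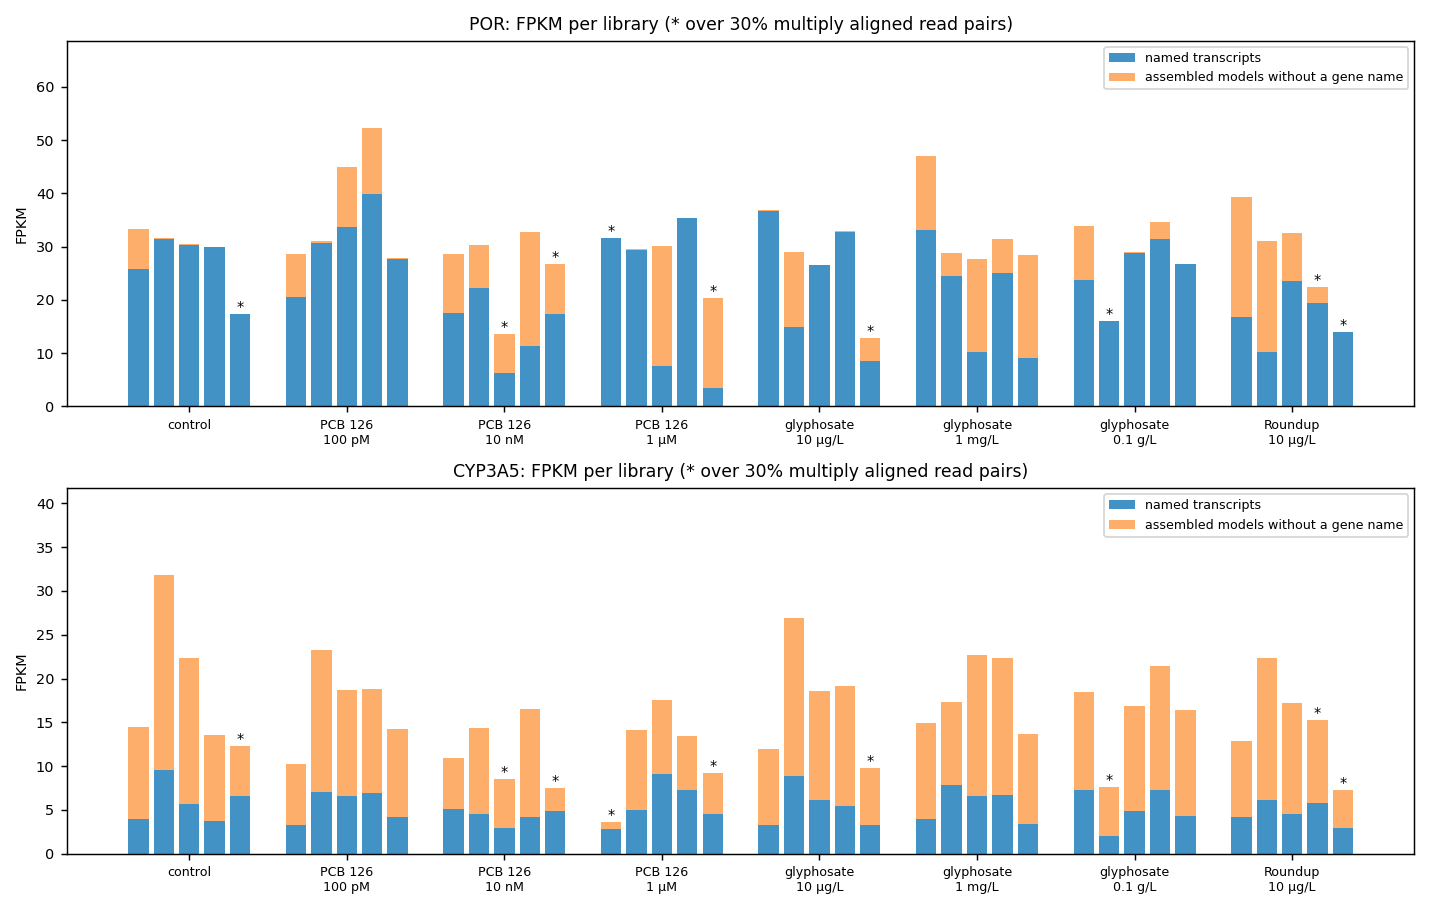
FPKM (y axis, linear, from 0) of POR and CYP3A5 in each of the 40 libraries (bars, in order of library within the group), divided into transcripts with the gene name and assembled models without one, with an asterisk over the 9 libraries with over 30% multiply aligned read pairs. Several libraries with low named POR reach a total near 30 FPKM, while assembled models hold 23.6% to 75.6% of the CYP3A5 total.

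The first question was whether PCB 126 changed the CYP3A enzymes, their receptors or their reductase. No member passed the threshold of an adjusted p of 0.05 at any concentration. Tests were made with limma on log2(FPKM + 1), adjusted with the Benjamini-Hochberg method over all genes of the fit. Log2 differences in the main fits are on that scale. For members near or below 1 FPKM, the added 1 makes them smaller in size than the log2 ratio of the FPKM themselves. CYP3A4, CYP3A5 and POR passed the filter on low values (variance of FPKM above 1) in both tables, and CYP3A7, CYP3A43, NR1I2 and NR1I3 did not and were tested in the fit without that filter. Of the genes past the filter, 0.0% were called at 100 pM, 0.205% at 10 nM, 1.87% at 1 µM and 0.0% between 1 µM and 10 nM. The test across the PCB 126 groups called 1.39%, and the trend over the 4 dose steps called 3.78%. Without the filter these shares were 0.0%, 0.0322%, 0.398%, 0.0%, 0.207% and 0.911%. With so few genes called in all, a count of 0 among 7 members is near the background. At an unadjusted p under 0.05 the counts of members were 0 at 100 pM, 0 at 10 nM, 3 at 1 µM, 1 between 1 µM and 10 nM, 0 across the groups and 3 in the trend. Over all genes that threshold was passed at 1 µM by 1322 of 9755 with the filter and 3836 of 43478 without it, between 1 µM and 10 nM by 324 and 1150, and in the trend by 1921 and 5160. Nothing is read from the counts of members beside these. The 3 members at 1 µM were CYP3A7, NR1I3 and CYP3A43, and those in the trend CYP3A7, NR1I3 and POR. The unmoderated linear model that carries library size as a term, fitted to the 3 members past the filter, called 0 in each. The median log2 change of all genes past the filter was -0.26 at 1 µM and -0.21 at 10 nM, and -0.01 at both after quantile normalization.

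CYP3A7, the fetal form, had its lowest group mean at 1 µM. Its FPKM were 0.932, 1.54, 1.84, 1.37 and 0.868 in the control libraries and 0.286, 0.511, 0.785, 0.932 and 0.740 at 1 µM. The groups overlapped, with the 2 lowest controls near the highest exposed library. The control mean was 1.31 ± 0.411 FPKM, and the means with PCB 126 were 0.920 ± 0.309 (100 pM), 0.819 ± 0.650 (10 nM) and 0.651 ± 0.254 (1 µM) FPKM (SD, n = 5 each). The log2 difference from control at 1 µM was -0.48 (95% interval -0.88 to -0.08, limma, unadjusted p = 0.0219, adjusted p = 0.454). A two-sided exact permutation test of the 2 groups of 5 gave p = 0.0159, unadjusted. The smallest value that this test can give is 0.00794. The trend was -0.16 per dose step (standard error 0.06, adjusted p = 0.267).

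NR1I3, the gene of CAR, had its highest group mean at 1 µM. Its FPKM were 0.465, 0.370, 0.567, 0.290 and 0.308 in the control libraries and 0.535, 0.568, 0.975, 1.19 and 0.707 at 1 µM. The means were 0.40 ± 0.12 and 0.79 ± 0.28 FPKM (SD, n = 5 each). All but 1 of the exposed libraries lay above the highest control, and that one lay above the other 4. At 10 nM the libraries ran from 0.128 to 1.23 FPKM, wider than in any other group. The log2 difference from control was 0.35 at 1 µM (95% interval 0.004 to 0.69, unadjusted p = 0.0477, adjusted p = 0.561, limma), and an exact permutation test gave p = 0.0159, unadjusted. Without the libraries over 30% multiply aligned the difference was 0.415 (adjusted p = 0.349). The trend was 0.12 per dose step (standard error 0.05, adjusted p = 0.307). With quantile normalization and no filter, settings combined after the data were seen, the trend of NR1I3 was 0.18 with an adjusted p of 0.0379, and it was the 1 call of a member in any fit.

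NR1I2, the gene of PXR, had near equal means in the control libraries (1.39 ± 0.912 FPKM) and at 1 µM (1.40 ± 0.815 FPKM). The means of the lower doses were 1.71 ± 0.374 (100 pM) and 1.95 ± 1.14 (10 nM) FPKM (SD, n = 5 each). The log2 difference at 1 µM was 0.01, with a 95% interval from -0.60 to 0.61 on the log2(FPKM + 1) scale. Changes of this size in either direction remain compatible with these libraries. At these levels they stand for larger ratios of FPKM.

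CYP3A4, the main adult form, had its highest group mean at 1 µM. Its FPKM were 1.37, 3.21, 6.95, 2.17 and 1.69 in the control libraries and 1.15, 5.35, 5.20, 5.87 and 3.51 at 1 µM. The highest and the lowest of these 10 values were a control and an exposed library, respectively, and the exposed library at 1.15 was one of those over 30% multiply aligned. The log2 difference was 0.39 (95% interval -0.32 to 1.10, adjusted p = 0.601, limma). Of the libraries over 30% multiply aligned, the PCB 126 table holds control library 5, 10 nM libraries 3 and 5 and 1 µM libraries 1 and 5. Without these the difference was 0.70 (adjusted p = 0.273). At 100 pM and 10 nM the differences were -0.19 (95% interval -0.89 to 0.52) and -0.06 (-0.76 to 0.65).

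CYP3A5 gave different pictures by name and by locus. The named sum was 5.94 ± 2.37 FPKM in the control group and 5.73 ± 2.44 at 1 µM (SD, n = 5 each), a log2 difference of -0.06 (95% interval -0.65 to 0.53, adjusted p = 0.931, limma). With the assembled models the locus held 14.5, 31.8, 22.4, 13.5 and 12.3 FPKM in the control libraries and 3.64, 14.2, 17.5, 13.4 and 9.24 FPKM at 1 µM. The lowest exposed libraries, at 3.64 and 9.24 FPKM, were both over 30% multiply aligned. The log2 difference was then -0.72 (95% interval -1.42 to -0.02, unadjusted p = 0.0453, adjusted p = 0.354, limma). A two-sided exact permutation test gave p = 0.127, unadjusted. The trend was -0.27 per dose step (adjusted p = 0.157, limma). Without the libraries of the PCB 126 table over 30% multiply aligned the difference was -0.36 (adjusted p = 0.574). None of these passed the threshold.

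CYP3A43 was near 0 throughout, at 0.0684 ± 0.0273 FPKM in the control group and 0.0249 ± 0.0258 FPKM at 1 µM (SD, n = 5 each). Its log2 difference of -0.06 (adjusted p = 0.561, limma) concerns values close to 0 on the FPKM scale.

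POR, the reductase, had the largest SD within groups on the log2(FPKM + 1) scale, and only by name. As the ratio of the highest to the lowest library, CYP3A7 varied more (17.2 against 11.3 for named POR). The named sum was 25.8, 31.5, 30.3, 29.9 and 17.3 FPKM in the control libraries and 17.6, 22.3, 6.31, 11.3 and 17.4 FPKM at 10 nM. All 5 libraries at 10 nM lay below 4 of the controls, and 3 of them lay above the lowest control, which was over 30% multiply aligned. The log2 difference at 10 nM was -0.89 (95% interval -1.79 to 0.02, adjusted p = 0.865, limma), and an exact permutation test gave p = 0.0317, unadjusted. All 5 libraries at 10 nM carried assembled models, at 7.29 to 21.4 FPKM, against 1 of 5 control libraries with more than 1 FPKM. With these models added, POR was 28.6 ± 6.40 FPKM in the control group, 26.4 ± 7.49 at 10 nM and 29.5 ± 5.54 at 1 µM (SD, n = 5 each). The log2 differences of the locus were then -0.13 (95% interval -0.68 to 0.42) at 10 nM and 0.06 (-0.50 to 0.61) at 1 µM. The trend, which was -0.31 per dose step for the named sum (adjusted p = 0.225), was -0.03 for the locus (adjusted p = 0.827).

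Single transcripts of the members gave no calls either. The transcript filter left 10 in the PCB 126 table, namely 1 of CYP3A4, 4 annotated ones of POR and 5 assembled models of POR. Of these 0 were called at 10 nM, where 0.0614% of 21181 transcripts were called, and 0 at 1 µM, where 0.552% were called. The annotated ENST00000394893 of POR had 5.81 ± 3.35 FPKM in the control group and 1.22 ± 2.13 FPKM at 10 nM (SD, n = 5 each), a log2 difference of -1.83 (standard error 0.57, adjusted p = 0.645, limma). The leading ENST00000461988 had 16.2 ± 5.49 and 4.93 ± 7.34 FPKM in the same groups and was listed at 0 in 3 of the 5 libraries at 10 nM (log2 difference -2.58, standard error 1.09, adjusted p = 0.951).

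**Figure D3:**
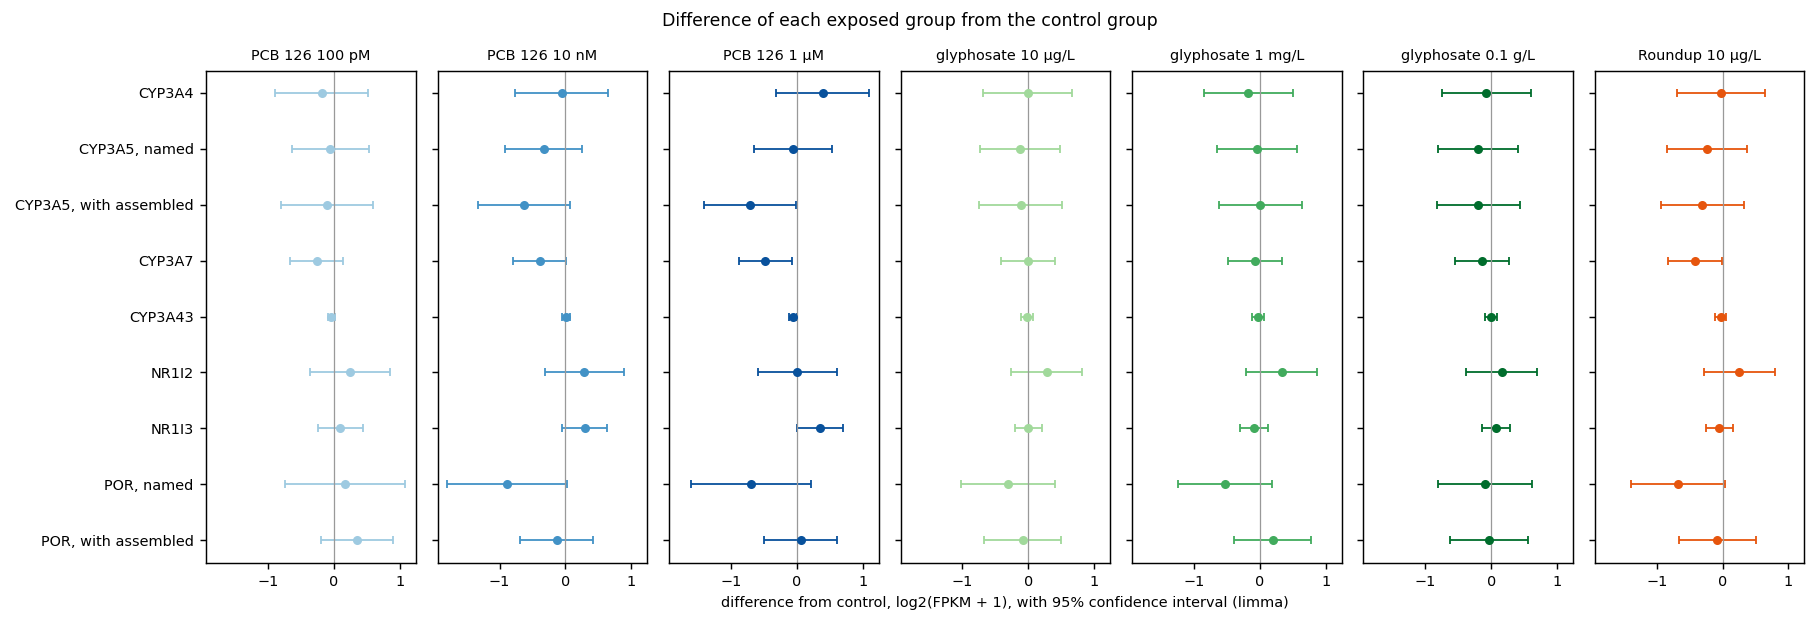
Difference of each member from the control group on the log2(FPKM + 1) scale (x axis) with its 95% confidence interval from limma, in 7 panels for the 7 exposed groups, with CYP3A5 and POR shown by named transcripts and with assembled models added. Most intervals span 0, and that of POR at 10 nM PCB 126 moves from -0.89 to -0.13 when the assembled models are added.

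The second question was whether glyphosate or Roundup changed these genes. No member was called in any herbicide comparison. Among the genes past the filter 0.0% were called at glyphosate 10 µg/L, 1 mg/L and 0.1 g/L, with Roundup, between Roundup and glyphosate, and across the groups. Without the filter 0.00225% (1 gene of 44434) were called at glyphosate 10 µg/L, between Roundup and glyphosate, and across the groups, and 0.0% in the other 3. The 28 log2 differences of members from control, 7 in each of the 4 exposed groups, lay between -0.67 and 0.33, and the smallest adjusted p was 0.902 (limma). At an unadjusted p under 0.05 the counts were 0 at each glyphosate concentration, 1 with Roundup and 1 between Roundup and glyphosate, in both cases CYP3A7. In the same fit without the filter 1193 and 1077 of 44434 genes passed that threshold in these 2 comparisons. The unmoderated linear model called 0.

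CYP3A4 had group means from 2.41 to 2.83 FPKM under the herbicides, against 3.08 FPKM in the control group. At the highest glyphosate concentration its libraries were at 1.20, 1.11, 3.55, 4.96 and 3.18 FPKM, inside the control range at all but the lowest 2. The log2 difference there was -0.07, and with Roundup -0.02, with 95% intervals from -0.75 to 0.60 and from -0.70 to 0.65.
CYP3A5 differed from control by -0.04 to -0.24 on the log2 scale, and its total with assembled models by 0.01 at 1 mg/L and by -0.31 with Roundup. NR1I2 had means of 1.69 to 1.90 FPKM, each above the control mean, with log2 differences from 0.16 to 0.33 and intervals that span 0. NR1I3 had means of 0.314 to 0.481 FPKM.

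Roundup is a formulation that contains glyphosate with other ingredients, and both were tested at 10 µg/L. CYP3A7 was at 0.139, 1.06, 0.809, 0.983 and 0.720 FPKM with Roundup and at 1.03, 1.42, 1.17, 1.87 and 0.956 FPKM with glyphosate. The ranges overlapped in part, and the lowest Roundup library stood far below the other 4. The log2 difference between the groups was -0.41 (95% interval -0.82 to -0.001, unadjusted p = 0.0493, adjusted p = 1.0, limma), and an exact permutation test gave p = 0.0397, unadjusted. Against the control group the difference was -0.42 (limma, unadjusted p = 0.0445, adjusted p = 1.0), and the exact permutation test gave p = 0.0556, unadjusted. For the other members the differences between Roundup and glyphosate had intervals of -0.69 to 0.66 for CYP3A4, -0.72 to 0.50 for CYP3A5, -0.56 to 0.51 for NR1I2, -0.26 to 0.16 for NR1I3 and -0.11 to 0.07 for CYP3A43.
POR by name was at 16.8, 10.2, 23.6, 19.5 and 14.0 FPKM with Roundup, each below the control mean of 27.0 FPKM. The log2 difference from control was -0.67 (95% interval -1.39 to 0.04, adjusted p = 0.902). With assembled models the Roundup libraries held 39.4, 31.0, 32.6, 22.4 and 14.0 FPKM and the difference was -0.08 (95% interval -0.67 to 0.51). The last 2 of them were over 30% multiply aligned. Roundup and glyphosate then differed in POR by 0.01 (95% interval -0.58 to 0.60). The same held at glyphosate 1 mg/L, where the named sum gave -0.52 and the locus 0.20 on the log2 scale.

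The levels of CYP3A4 were next set against those of the other 6 members over the 40 libraries, after the group means were taken off. CYP3A7 gave Pearson's r = 0.563 and Spearman's rho = 0.585 (permutation tests within groups, 100000 permutations, p = 0.00059 and 0.00043, adjusted over the 6 relations 0.00177 and 0.00258). Without the 2 libraries farthest from the CYP3A4 median r was 0.522 (adjusted p = 0.00381), without the libraries over 30% multiply aligned 0.479 (adjusted p = 0.0438), and with 75th-percentile scaling 0.438 (adjusted p = 0.0277).
CYP3A5 gave r = 0.608 and rho = 0.562 (permutation tests, p = 0.0004 and 0.00113, adjusted 0.00177 and 0.00339), and NR1I2 gave r = 0.516 and rho = 0.453 (p = 0.00441 and 0.00989, adjusted 0.00882 and 0.0198). NR1I3 gave r = 0.385 and rho = 0.374 (p = 0.0164 and 0.0267, adjusted 0.0246 and 0.0401). These 3, by gene name, did not hold in the 31 libraries at or under the limit or not named in the alignment summary. There r was 0.387 for CYP3A5, 0.300 for NR1I2 and 0.0337 for NR1I3 (adjusted p = 0.288, 0.345 and 0.853). With assembled models added, CYP3A5 gave r = 0.72 over the 40 libraries (permutation test, adjusted p = 0.00018). That relation was not computed in the 31. For CYP3A43 r was 0.323 and rho 0.333 (permutation tests, p = 0.0496 and 0.0558, adjusted 0.0595 and 0.067), and for POR they were 0.204 and 0.295 (p = 0.311 and 0.0937, adjusted 0.311 and 0.0937). No relation was computed within the 9 libraries, which are at most 2 in any group. All points share the depth and composition of their library.

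**Figure D4:**
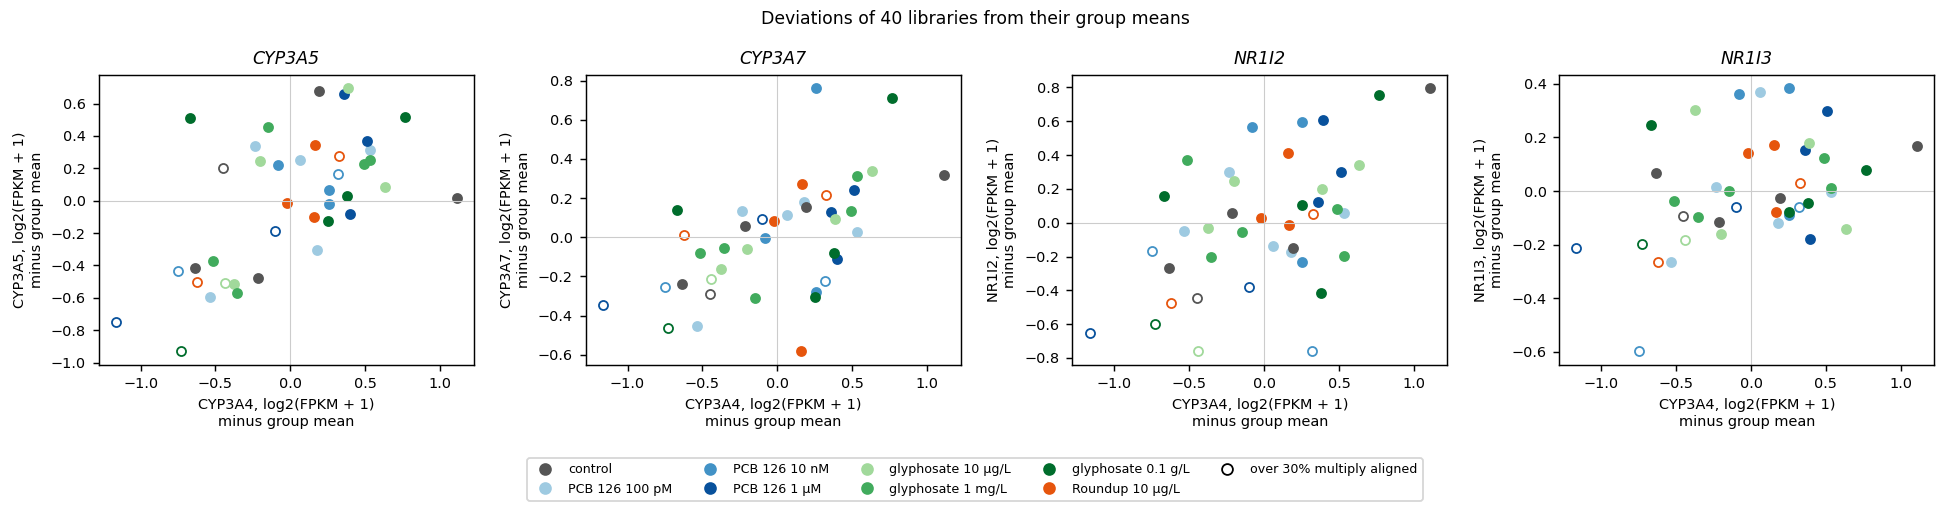
Deviation of CYP3A4 from its group mean (x axis, log2(FPKM + 1)) against that of CYP3A5, CYP3A7, NR1I2 and NR1I3 (y axes, same scale) in 40 libraries coloured by group, with open points for the 9 libraries with over 30% multiply aligned read pairs. Of the open points 7 of 9 lie below their group mean of CYP3A4, and r falls from 0.516 to 0.300 for NR1I2 and from 0.385 to 0.0337 for NR1I3 without them.

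Genes of like pattern were then ranked without taking off the group means and without scaling. Differences between groups and between libraries therefore both enter these values. Among the 9260 genes that passed the filter in both tables, the 5 with the pattern most like CYP3A4 over the 40 libraries were ASAH1 (Spearman's rho 0.725), ALDH3A2 (0.722), FOLR1 (0.682), PLXNA3 (0.675) and AP2A1 (0.671). For NR1I2 they were ZER1 (0.699), PLEKHA7 (0.678), ARHGAP5 (0.677), LMAN2L (0.670) and CALCOCO2 (0.662). For NR1I3 they were CARD10 (0.768), GAS6 (0.753), ATOH8 (0.747), OLFML3 (0.746) and NTN4 (0.732).

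The known target genes of PXR and CAR were described as a list beside the receptors. Of 15 genes, 14 passed the filter in the PCB 126 table, and at 1 µM 1 rose and 1 fell, with a median log2 change of -0.13 against -0.26 over all genes. Over all genes past the filter 1.87% were called there. UGT1A1, which conjugates bilirubin and shares exons with the other UGT1A genes, rose by 1.88 on the log2 scale (standard error 0.46, adjusted p = 0.0276, limma). Its libraries ran from 28.0 to 101.0 FPKM in the control group and from 110.6 to 375.2 FPKM at 1 µM. The paper counts UGT1A1 among the hallmarks of xenobiotic metabolism activated by dioxin-like compounds. Through which receptor it rose was not tested. CYP2C8, an oxidase of drugs and arachidonic acid, fell by 1.70 (standard error 0.36, adjusted p = 0.00937). CYP2C8 was at 28.7, 32.7, 37.5, 37.4 and 20.3 FPKM in the control libraries and at 2.79, 10.5, 13.0, 13.7 and 8.77 FPKM at 1 µM, and the groups did not overlap.
CYP2B6, the classic CAR target, was at 1.91, 0.802, 3.41, 1.84 and 1.28 FPKM in the control libraries and at 1.44, 9.07, 11.7, 11.7 and 6.59 FPKM at 1 µM. All exposed libraries but library 1, which was over 30% multiply aligned, lay above the controls, and the difference of 1.53 on the log2 scale had an adjusted p of 0.0677. Without the libraries of the PCB 126 table over 30% multiply aligned, among them control library 5 and 1 µM libraries 1 and 5, it was 2.04 (adjusted p = 0.00189). In the trend over dose steps 3 of the 14 were called, namely UGT1A1 (0.64 per step), CYP2B6 (0.56) and CYP2C8 (-0.58), against 3.78% of all genes past the filter. At 100 pM and 10 nM, and in each herbicide group, 0 of the 14 were called.

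The other lists at 1 µM PCB 126 divided as follows, where 1.87% of all genes past the filter were called and their median log2 change was -0.26. Of 18 tested nuclear receptor partners and liver factors, VDR, the vitamin D receptor, rose (1.03), and 3 fell, namely PPARGC1A, a coactivator of PXR and CAR among others (-1.54), the pioneer factor FOXA1 (-1.21) and the bile acid receptor NR1H4 (-1.19). RXRA, the partner of PXR and CAR, was at -0.06 and HNF4A at 0.41, both without a call. Of 13 tested redox partners and haem enzymes 0 were called, with a median of 0.00 (limma), and 2 were called after quantile normalization. Of 6 tested AhR target genes 5 rose, CYP1A1 by 6.61 and CYP1A2 by 6.16 among them. Of 12 hepatocyte markers 4 fell, namely AHSG, HPX, TTR and FGB (-1.84 to -1.37), and the list had a median of -0.96. The summed hepatocyte markers were 17250 to 25940 FPKM in the control libraries and 6812 to 17670 FPKM at 1 µM. Of 4 tested biliary markers and 4 tested stromal, endothelial and leucocyte markers 0 were called, and the sum of the 9 biliary markers was 279 to 536 and 165 to 285 FPKM in the same groups. The part of cell composition in the values of CYP3A7, CYP3A5, NR1I3 and the lists was not tested. In each herbicide group 0 genes of any list were called.

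**Figure D5:**
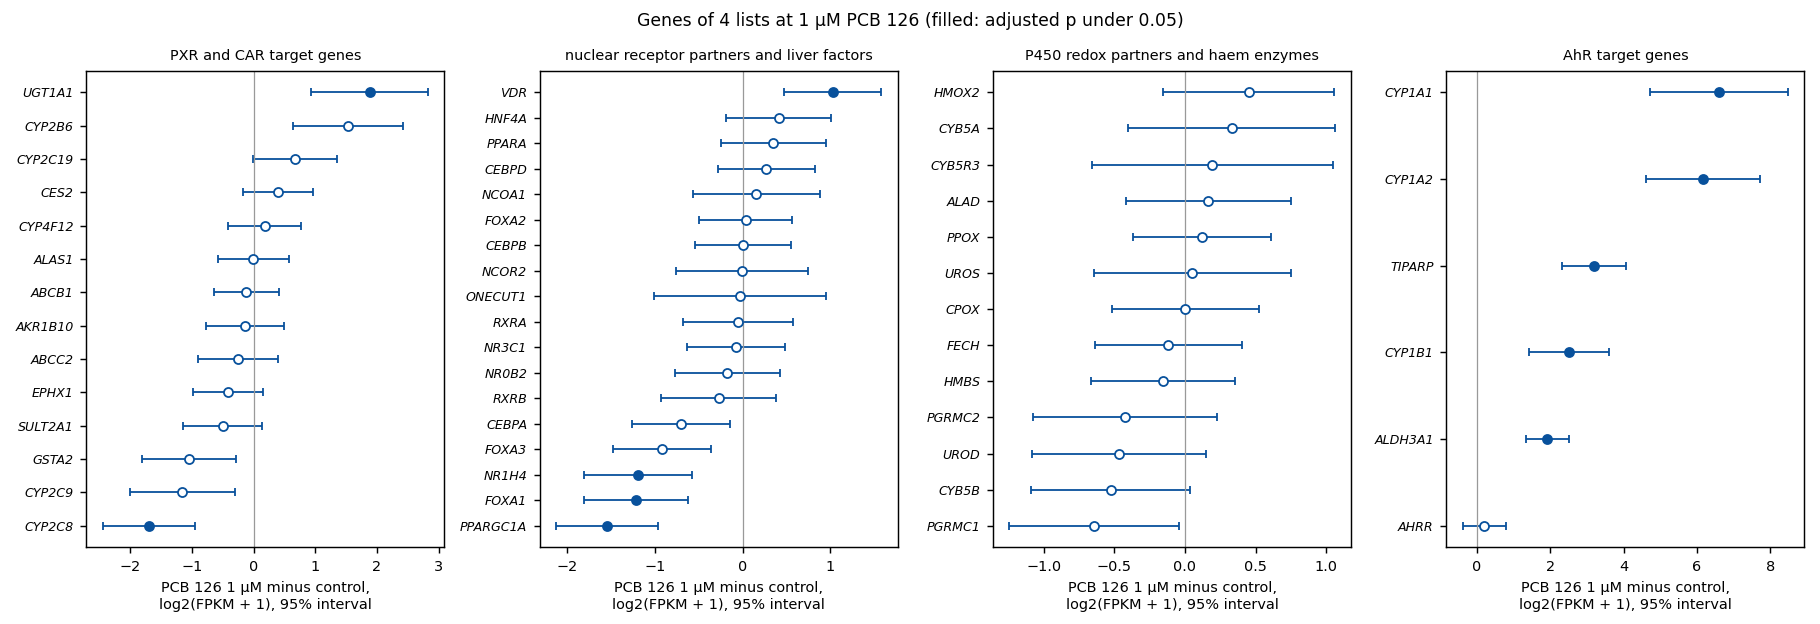
Difference between PCB 126 1 µM and control on the log2(FPKM + 1) scale (x axis) with its 95% interval, for the tested genes of 4 lists in 4 panels with different x ranges, filled where the adjusted p was under 0.05. Of the PXR and CAR target genes only UGT1A1 and CYP2C8 are filled, on opposite sides of 0, while 5 of 6 AhR target genes are filled and positive. The paper also counts UGT1A1 among the genes activated by dioxin-like compounds.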

How the data were processed

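From read pairs of rRNA-depleted, directional libraries the authors made HISAT2 alignments on GRCh38 and a StringTie assembly guided by Ensembl, and deposited FPKM per transcript for 234960 transcripts, 35782 of them without a gene name. Columns that hold slightly negative values were treated as a score deposited by the authors on the same FPKM scale, and 4 and 6 negatives in the 2 tables were set to 0. The study states the range of reads per library. Counts per gene were not used here, so the depth behind a single FPKM value is unknown, no interval from counting is given, and the 5 libraries per group limit the precision. FPKM were summed per gene name, genes with a variance above 1 were kept (9755 and 9533) and log2(FPKM + 1) was fitted with limma 3.58.1 (R 4.3.3) over all groups of a table, with Benjamini-Hochberg adjustment and a threshold of 0.05. Single members were also compared with exact permutation tests over the 252 ways to divide 5 and 5 libraries. The fit was tested on simulated data. Figures and permutations used Python 3.11.15. The members and lists were chosen with earlier results of these data known. All members were named in every group, with 3 transcripts each, at most 6 called genes per list and contrast, and 5 genes of like pattern for CYP3A4, NR1I2 and NR1I3. The labels give library numbers but no replicate numbers, and libraries were numbered in accession order. Alternatives covered the pseudocount, filter, scaling, library-size term, library set, replicate block, groups in the fit, left-out libraries and transcripts counted.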

Additional observations from a re-analysis of the deposited data

Results flagged for a closer look

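Of 72 sets of 5 libraries (7 members by name, and POR and CYP3A5 with assembled models, in 8 groups), 5 held a library whose gap to the nearest other one passed Dixon's limit at 95%. Chance does so in about 1 set in 20. CYP3A7 was lowest in PCB 126 100 pM library 1 (0.387 FPKM) and highest in PCB 126 10 nM library 4 (1.96 FPKM). CYP3A43 was highest in glyphosate 1 mg/L library 4 (0.219 FPKM). POR with assembled models was lowest in control library 5 (17.3 FPKM), which was over 30% multiply aligned, and highest in glyphosate 1 mg/L library 1 (47.0 FPKM).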

How the results depend on the processing

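Each contrast and the trend were refitted under 77 to 94 alternatives for CYP3A4, CYP3A5 and POR and under 24 to 30 for the other 4 members. None of these called a member, leave-one-out included (lowest and highest count 0 and 0), except for the PCB 126 trend with quantile normalization and no filter, where 1 was called, NR1I3 with 0.18 per step. The cause was not tested. Of 2925 estimates with a library left out 256 changed sign and 0 were called, of 303 under the other settings chosen at the outset 29 changed sign, and of 430 under settings added after the data were seen 65 did. Replicate numbers come from accession order. The library numbers in the sample titles run 1 to 8, 19 to 26, 37 to 44, 55 to 62 and 73 to 80. Each run holds 1 library of every group in the same order, and the replicate number follows the run. What the runs stand for is not stated, and neither the main fits nor the permutation tests take them into account. Leaving out the libraries over 30% multiply aligned also left out most of the run 73 to 80. Of same-numbered pairs 7 of 30 (PCB 126) and 19 of 50 (herbicides) had a correlation over 0.1. The mean correlation was 0.0569 and 0.0893 in these pairs, against -0.0141 and -0.0224 in pairs with other numbers. Of the libraries, 14 of 20 and 18 of 25 correlated best with their own number. With the replicate block 0 members were called in each comparison, genes called were 357 against 182 at 1 µM, 37 against 20 at 10 nM, 270 against 136 across the PCB 126 groups and 639 against 369 in the trend, and 1 biliary marker was called at 1 µM against 0. The POR estimates moved most, from -2.54 (its leading transcript alone) to 0.26 at glyphosate 1 mg/L, from -2.58 to 0.08 at PCB 126 10 nM and from -1.62 to 0.24 at 1 µM. PXR and CAR target genes called at 1 µM were 2, and 4 with 75th-percentile scaling, 6 with quantile normalization and 5 without the libraries over 30% multiply aligned, and 2 at 10 nM with quantile normalization. At 1 µM the counts of genes called were 7 hepatocyte markers with 75th-percentile scaling, 1 biliary marker with either scaling or without the libraries over 30% multiply aligned, 1, 2 and 2 stromal markers under the same 3 settings, and 2 redox and haem genes with quantile normalization. At 10 nM 1 and 3 liver factors were called with 75th-percentile scaling and quantile normalization. Of all genes, 571 and 1085 were called at 1 µM with these scalings against 182. Their split was 246 higher and 325 lower, and 532 and 553, against 63 and 119.

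For the relations with CYP3A4 (r, then rho), 75th-percentile scaling gave 0.392 and 0.373 for CYP3A5, 0.305 and 0.239 for NR1I2 and 0.0872 and 0.126 for NR1I3, none past the threshold. Without the 9 libraries they were 0.387 and 0.377, 0.300 and 0.171, and 0.0337 and 0.0169. Without the 2 farthest libraries rho was 0.373 for NR1I2 and NR1I3 had 0.248 and 0.232, none past it, while r of 0.369 for CYP3A43 passed. With assembled models CYP3A5 had 0.72 and 0.678 (permutation tests, adjusted p = 0.00018 and 0.00012), and r passed for CYP3A43 (0.323) and POR (0.393). This setting was not combined with scaling or with leaving libraries out.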
